A study of Homo sapiens with 18 samples.

Results

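The 10 genes described here encode demethylases that use molecular oxygen and 2-oxoglutarate to take methyl groups off histone lysines or DNA. They were taken by gene symbol (KDM2B, KDM3A, KDM4A, KDM4B, KDM4C, KDM5B, KDM5C, KDM6B, TET1 and TET3) from a table of 38055 genes, and all 10 were found there. Values came from 6 whole transcriptome RNAseq libraries of wild-type HCT116 cells, a human colorectal carcinoma line of epithelial type. Of the 6 libraries, 3 were from day 3 (50% confluency) and 3 from day 5 (250% confluency), all from cells of the same genotype. The comparison of the 2 days asks which transcripts differ between sparse and overgrown cultures. Time in culture and cell density cannot be told apart, since each day has 1 density. The labels call the 3 libraries of a day biological replicates without saying how the cultures were separated, so p-values measure the spread between these libraries. Day 7 whole transcriptome values were not analysed here.

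The JmjC-domain enzymes and the TET enzymes share 1 chemistry. An iron atom in the active site binds oxygen and 2-oxoglutarate, the methyl group is oxidised, and succinate and carbon dioxide leave. Because oxygen is a substrate, some of these enzymes slow down when oxygen falls, and several of their genes are known targets of hypoxia-inducible factors. KDM3 and KDM4 enzymes act on methylated H3K9, KDM5 enzymes on H3K4, KDM6 enzymes on H3K27 and KDM2 enzymes on H3K36, with KDM4 enzymes also acting on H3K36. TET enzymes oxidise 5-methylcytosine in DNA. RNA levels say nothing of the activity of these enzymes, and reads counted per gene do not separate isoforms, such as the short KDM2B transcripts that lack the JmjC domain.

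The depth of the libraries was between 27470978 and 56689369 reads counted on genes, and day 3 held both the deepest and the shallowest. Each member had between 443 and 10524 reads per library, so all 10 passed the filter on low values. Of 6 epithelial marker genes, 5 were called higher on day 5 and EPCAM was not (log2 fold change 0.00, adjusted p = 0.982 from limma), though it was with the GC and length correction described further on (log2 fold change 0.36, adjusted p = 0.00441 from limma). Of the fibroblast markers, COL1A1 reached 1156 and 4 others stayed at or under 31.1, and the leukocyte marker PTPRC reached at most 2.14. LYZ and VWF, the 2 tested genes of the leukocyte and endothelial list, were called higher at low counts. Their day 3 means were 6.50 and 14.1 and their day 5 means 14.2 and 32.1 (adjusted p = 0.00823 and 0.0414 from limma). The call of VWF was lost with that correction (adjusted p = 0.437 from limma) and that of LYZ on reads (adjusted p = 0.102 from DESeq2). The summed count of the fibroblast markers was 526 to 605 on day 3 and 1124 to 1200.1 on day 5, nearly all of it COL1A1, and that of the leukocyte and endothelial markers was 17 to 31.5 and 37.3 to 57.5. The part of these genes in the results was not tested. Fewer cells of a type and less RNA per cell cannot be told apart in such bulk values.

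All 10 demethylase genes rose between day 3 and day 5 (limma on log2(value + 1), Benjamini-Hochberg adjustment over 20129 genes, threshold 0.05). Among all genes tested, 29.3% were called higher at that threshold and 27.6% lower. The rise was at least 2-fold for 6 of the 10, against 10.2% of all genes tested. In every member, the 3 day 5 libraries lay above the 3 day 3 libraries, which held for 33.4% of the genes tested. The median log2 fold change was 1.42 for the 10 and 0.01 for all genes tested. The members ranged from rank 70 (KDM4B) to rank 4185 (TET1) of the 20129 when genes were ordered from the largest rise. The members were chosen with earlier results of these data known, so their common direction is a description of these genes.

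**Figure D1:**
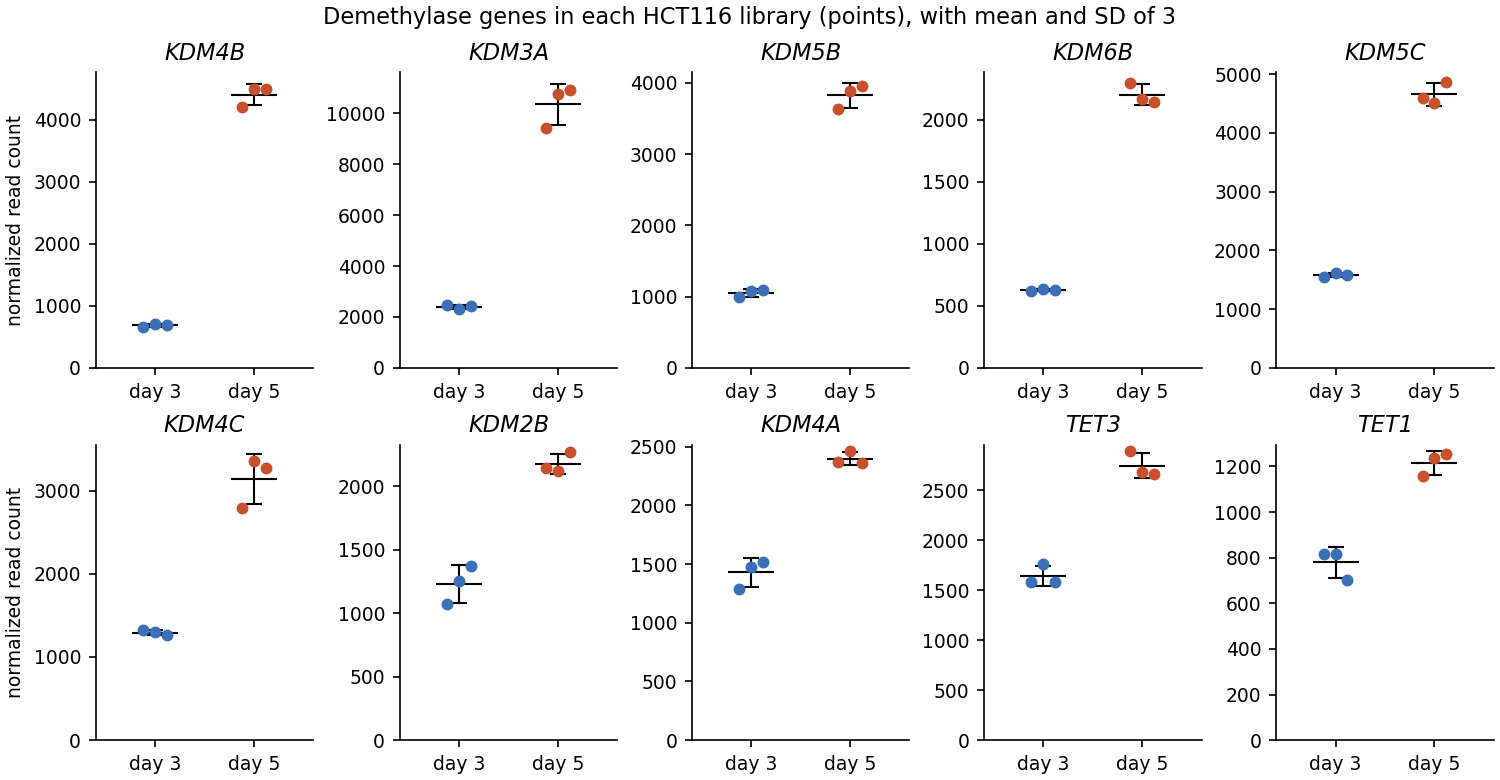
Normalized read count (y axis, from 0) of each demethylase gene in the 3 day 3 libraries (blue points) and the 3 day 5 libraries (red points), with the mean as a bar and the SD (n = 3) as whiskers. Panels run from the largest ratio, KDM4B at 6.39-fold, to the smallest, TET1 at 1.56-fold, and in each panel the red points lie above the blue ones.

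Fold changes moved with the GC content of the genes. Across 19288 genes with an annotated transcript, the log2 fold change had a Spearman correlation of 0.43 with GC content and 0.26 with exon length. These are descriptions across genes of the same 6 libraries, and genes are not independent replicates. After a smooth trend over GC content and length was removed from each library, an alternative chosen after seeing the data, 8 of the 10 members were still called higher, against 24.9% of the genes tested that way. KDM2B and TET3 lost the call. Whether the trend is technical or part of the response to density was not tested, so both values are given for each member.

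**Figure D2:**
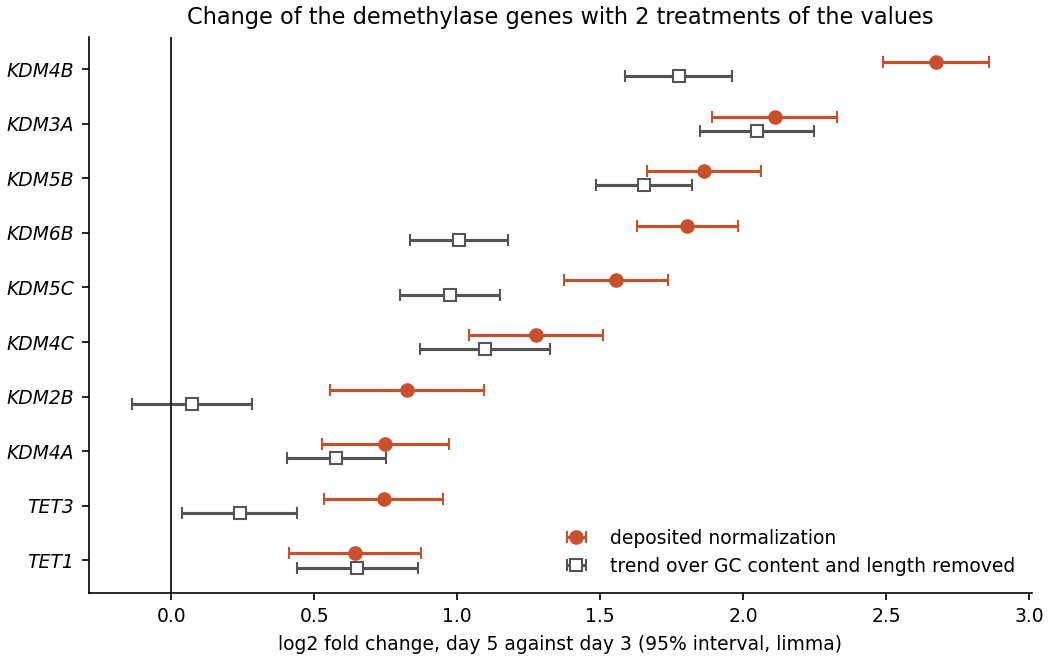
Log2 fold change of day 5 against day 3 (x axis) with its 95% interval from limma for each gene (y axis), from the deposited normalization (filled red circles) and after removing a trend over GC content and exon length per library (open grey squares). The squares of KDM2B, at 0.07, and TET3, at 0.24, sit nearest to 0, while those of KDM3A and KDM4B stay near or above 1.78.

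Because the members rose together, their promoters were searched for ACGTG and GCGTG, the core letters of the response element of hypoxia-inducible factors, on both strands. The windows are RefSeq promoters on GRCh38.p14, 300 bases long, with 250 bases before each gene start and 50 after it. All 10 genes matched, with 18 windows, since some genes have several starts. ACGTG was found in 4 of the 18 windows and GCGTG in 12, and 13 held either of them. Of all 35116 windows, 21.4% held ACGTG, 36.5% held GCGTG and 48.4% held either. At least 2 matches were found in 4 of the 18, against 23.1% of all windows. The windows of the members were richer in CpG, with a median of 23.5 CpG against 14, and the overlapping windows of KDM3A hold the same GCGTG, at -26 in one and -116 in the other. The windows of KDM4B and KDM3A are shown because these genes rose most, that of KDM4C because it held 5 matches, as many as the first window of TET3 and more than the others, and that of KDM5C because it rose with no match. Sequences run 5′ to 3′ on the strand of the gene, with the motif letters in capitals. The 6 letters CACGTG hold ACGTG on both strands, as 2 overlapping matches.
KDM4B (chr19:4968863-4969162, plus strand): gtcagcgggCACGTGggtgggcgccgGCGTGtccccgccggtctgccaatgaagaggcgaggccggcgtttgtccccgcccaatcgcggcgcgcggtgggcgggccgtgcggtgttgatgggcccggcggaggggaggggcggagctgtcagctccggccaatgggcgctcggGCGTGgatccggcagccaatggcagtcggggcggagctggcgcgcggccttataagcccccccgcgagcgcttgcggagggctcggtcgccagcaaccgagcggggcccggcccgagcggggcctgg
KDM3A (chr2:86441121-86441420, plus strand): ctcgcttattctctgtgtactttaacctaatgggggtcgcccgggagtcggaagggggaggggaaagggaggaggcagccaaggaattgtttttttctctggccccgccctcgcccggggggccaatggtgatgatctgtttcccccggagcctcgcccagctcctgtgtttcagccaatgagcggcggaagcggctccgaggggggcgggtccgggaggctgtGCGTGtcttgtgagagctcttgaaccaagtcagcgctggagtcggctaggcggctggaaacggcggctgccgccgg
KDM4C (chr9:6757723-6758022, plus strand): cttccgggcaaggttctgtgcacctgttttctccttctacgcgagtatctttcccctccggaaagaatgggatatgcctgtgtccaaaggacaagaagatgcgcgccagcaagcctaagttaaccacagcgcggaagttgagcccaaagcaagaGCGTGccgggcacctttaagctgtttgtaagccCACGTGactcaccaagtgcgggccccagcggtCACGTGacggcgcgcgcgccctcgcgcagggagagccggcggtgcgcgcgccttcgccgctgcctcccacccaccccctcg
KDM5C (chrX:53225158-53225457, minus strand): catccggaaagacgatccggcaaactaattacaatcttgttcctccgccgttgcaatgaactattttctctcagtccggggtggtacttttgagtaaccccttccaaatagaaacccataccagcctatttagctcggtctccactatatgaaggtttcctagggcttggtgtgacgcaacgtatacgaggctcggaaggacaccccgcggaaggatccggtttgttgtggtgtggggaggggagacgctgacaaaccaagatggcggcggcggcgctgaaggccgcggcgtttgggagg
KDM4B had 4 matches, of which 2 were the overlapping pair in CACGTG that begins at position -241. In these positions, 1 is the RefSeq gene start of the window and -1 the base before it. KDM3A had 1 match, GCGTG at position -26. KDM4C had 5 matches, with CACGTG at positions -63 and -31. The RefSeq start of its window lies inside the KDM4C locus given further on, which begins at 6720863, so the 2 annotations differ there. A match describes letters in a window, and binding at these sites was not measured here.

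The H3K9 demethylases KDM4B and KDM3A rose most of the 10 genes. KDM4B (chromosome 19, 4969113 to 5153598, plus strand, GRCh38, ENSG00000127663), which removes di- and trimethyl marks from H3K9, had normalized read counts of 659, 709 and 697 in the day 3 libraries and 4210.0, 4495 and 4501 in the day 5 libraries. The days did not overlap, with the lowest day 5 library far above the highest day 3 library. Its log2 fold change was 2.67 (standard error 0.08, adjusted p = 8.15e-05 from limma), a ratio of means of 6.39. With the GC and length trend removed, the log2 fold change was 1.78 (adjusted p = 0.000217 from limma). KDM3A (chromosome 2, 86440647 to 86492716, plus strand, ENSG00000115548), which acts on mono- and dimethyl H3K9, was at 2464, 2300.2 and 2418 in the day 3 libraries and 9428, 10749 and 10898 in the day 5 libraries. The lowest day 5 library, replicate 1, was still 9428, and the log2 fold change was 2.11 (standard error 0.09, adjusted p = 0.000128 from limma). This value hardly moved, to 2.05, when the GC and length trend was removed.

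The other KDM4 members, KDM4A and KDM4C, also rose. KDM4C (chromosome 9, 6720863 to 7175648, plus strand, ENSG00000107077), also an eraser of trimethyl H3K9, was at 1320.5, 1298 and 1260.2 in the day 3 libraries and 2795, 3357 and 3272 in the day 5 libraries. Its log2 fold change was 1.28 (standard error 0.10, adjusted p = 0.000261 from limma), and 1.098 without the GC and length trend. KDM4A (chromosome 1, 43650149 to 43705518, plus strand, ENSG00000066135) was at 1292, 1477 and 1521 in the day 3 libraries and 2369.6, 2461 and 2365 in the day 5 libraries. The days did not overlap, and the log2 fold change was 0.75 (standard error 0.09, adjusted p = 0.000955 from limma), and 0.58 without that trend. The 95% intervals of the log2 fold changes were 2.49 to 2.86 for KDM4B, 1.04 to 1.51 for KDM4C and 0.53 to 0.97 for KDM4A.

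The H3K4 demethylases KDM5B and KDM5C both rose more than 2-fold. These enzymes take di- and trimethyl marks off H3K4, a mark of active promoters. KDM5B (chromosome 1, 202724495 to 202808487, minus strand, ENSG00000117139) was at 990.4, 1076 and 1087 in the day 3 libraries and 3627, 3887 and 3956 in the day 5 libraries. Its log2 fold change was 1.86 (standard error 0.08, adjusted p = 0.000135 from limma), and 1.65 without the GC and length trend. KDM5C (chromosome X, 53176283 to 53225422, minus strand, ENSG00000126012), an X-linked gene with a close relative on the Y chromosome that may share reads with it, was at 1542, 1621 and 1588 in the day 3 libraries and 4592, 4507 and 4867 in the day 5 libraries. The log2 fold change of KDM5C was 1.55 (standard error 0.07, adjusted p = 0.000145 from limma), and 0.97 (adjusted p = 0.00046 from limma) without the trend. KDM5A, a paralogue, had a day 3 mean of 3238 and a day 5 mean of 4124, with a limma estimate of 0.35 on the log2 scale (adjusted p = 0.00828) that did not pass when no filter on low values was used (adjusted p = 0.0658 from limma).

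KDM6B (chromosome 17, 7834217 to 7854796, plus strand, ENSG00000132510), which removes the Polycomb mark trimethyl H3K27, was at 623, 635 and 628 in the day 3 libraries and 2298, 2165 and 2143 in the day 5 libraries. The 3 libraries of day 3 lay close together, with a SD of 6.11. The log2 fold change was 1.81 (standard error 0.07, adjusted p = 0.000111 from limma), and 1.01 (adjusted p = 0.000447 from limma) without the GC and length trend, with KDM6B having the highest transcript GC content of the 10 at 62.2%. Its paralogue KDM6A had means of 1509 on day 3 and 1885 on day 5, and limma put the difference at 0.32 on the log2 scale (adjusted p = 0.0195). Leaving out day 3 replicate 2, day 5 replicate 2 or day 5 replicate 3 ended the call of KDM6A (adjusted p = 0.0668, 0.067 and 0.064 from limma).

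KDM2B (chromosome 12, 121429096 to 121581023, minus strand, ENSG00000089094), an H3K36 demethylase that also brings a variant Polycomb complex to CpG islands, was at 1075, 1252 and 1371 in the day 3 libraries and 2139.7, 2119 and 2268 in the day 5 libraries. Every day 5 library was above every day 3 library, and the day 3 libraries had a SD of 149 around a mean of 1232. The log2 fold change was 0.83 (standard error 0.11, adjusted p = 0.00134 from limma). Without the GC and length trend it was 0.07 (95% interval -0.14 to 0.28, adjusted p = 0.515 from limma), so the call of KDM2B rests on leaving that trend in. KDM2A rose by 1.25 on the log2 scale (adjusted p = 0.000235 from limma), from a mean of 2231 to one of 5292, and by 0.79 without the trend.

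On the deposited scale the TET genes rose least of the 10, with TET3 close to KDM4A, at 0.74 and 0.75. With the GC and length trend removed, KDM2B was lowest, at 0.07, and TET1 lay above KDM4A, at 0.65 and 0.58. TET3 (chromosome 2, 73984910 to 74108176, plus strand, ENSG00000187605) was at 1579, 1759 and 1582 in the day 3 libraries and 2889, 2684 and 2659 in the day 5 libraries. Its log2 fold change was 0.74 (standard error 0.08, adjusted p = 0.000781 from limma), and 0.24 without the GC and length trend (adjusted p = 0.0528 from limma), which did not pass. TET1 (chromosome 10, 68560337 to 68694487, plus strand, ENSG00000138336) was at 818, 818 and 702 in the day 3 libraries and 1156, 1237 and 1254 in the day 5 libraries. The log2 fold change of TET1 was 0.64 (standard error 0.09, adjusted p = 0.00195 from limma), the smallest of the members, and it was 0.65 without the trend. TET2, the third enzyme that oxidises 5-methylcytosine, had overlapping days at means of 2223 and 2329.8, and its log2 fold change of 0.07 had a 95% interval of -0.12 to 0.26 (adjusted p = 0.495 from limma).

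Levels of different genes were compared as normalized read count per kb of annotated exon (the union of the exons of all annotated transcripts). On day 3, KDM4A was highest at 276 ± 23.5 per kb (SD, n = 3), followed by KDM3A at 180.0 ± 6.35. KDM5C, TET3 and KDM4C overlapped at 128, 127 and 125, and so did KDM2B, KDM6B and TET1 at 90.4, 85.1 and 81.1. KDM4B at 46.8 and KDM5B at 42.2 were lowest per kb. This order depends on the exon length, from 5184 bases for KDM4A to 24899 for KDM5B, and no other length was tried for it. Undivided, the day 3 mean of KDM5B (1051) was above those of KDM6B (629), KDM4B (689) and TET1 (779). That of KDM4A (1430) was below those of KDM3A (2394), KDM5C (1584) and TET3 (1640). On day 5, KDM3A was highest at 779 ± 60.9 per kb and KDM4A second at 463 ± 10.4. KDM5C followed at 378 ± 15.3, and KDM4C, KDM4B and KDM6B then overlapped, at 304, 299 and 298. TET1 was the lowest member on day 5, at 126 ± 5.44 per kb.

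Each subfamily was then described by the shares of its paralogues. Shares are computed inside each library, so its scale factor cancels, but a trend over GC content does not. For each of the 6 subfamilies, the share of a paralogue is its level per kb of exon as a percent of the summed level of the paralogues shown. KDM3A went from 13.1% ± 0.698 on day 3 to 32.2% ± 1.13 on day 5 (SD, n = 3) of KDM3A, KDM3B and JMJD1C, while JMJD1C went from 54.9% ± 1.7 on day 3 to 28.6% ± 0.461 on day 5. KDM4B went from 10.5% ± 0.196 on day 3 to 28.1% ± 0.379 on day 5 of KDM4A, KDM4B and KDM4C, and KDM4A went from 61.5% ± 2.22 on day 3 to 43.4% ± 1.46 on day 5. These 4 shares did not overlap between the days. KDM5C went from 29.2% ± 0.939 on day 3 to 43.2% ± 0.575 on day 5 and KDM5B from 9.6% ± 0.609 on day 3 to 17.6% ± 0.683 on day 5 of KDM5A, KDM5B and KDM5C. KDM6B went from 61% ± 0.829 on day 3 to 81.4% ± 1.61 on day 5 of KDM6A and KDM6B. Which of these 2 was larger on day 3 depends on the division by length, at 27742 bases of exon for KDM6A and 7392 for KDM6B. Undivided, KDM6A had the higher mean count on day 3 (1509 against 629) and KDM6B on day 5 (2202 against 1885). KDM2B, by contrast, went from 29.6% ± 0.806 on day 3 to 23.8% ± 0.565 on day 5 of KDM2A and KDM2B. TET3 went from 36.9% ± 1.49 on day 3 to 44.2% ± 2.09 on day 5 and TET1 from 23.6% ± 1.69 on day 3 to 26.4% ± 1.18 on day 5 of the 3 TET genes. Of the 16 shares, 15 did not overlap between the days. Each of these had p = 0.1 by an exact permutation test, two-sided, where 3 against 3 libraries can give no smaller p. The Benjamini-Hochberg value of these permutation tests was 0.107 over the 16. Shares of a subfamily add up to the whole, so the 16 are not independent, and KDM2A mirrors KDM2B as KDM6A mirrors KDM6B. How often shares of other genes stay apart was not computed. The share of KDM4C overlapped, at 28% and 28.5% (exact permutation p = 0.9). The direction for KDM4C turned with no division by length and without day 3 replicate 3, to -6.40 and -0.366 percentage points. On values with the GC and length trend removed, the share of TET3 was 40.5% on day 3 and 40.3% on day 5 and overlapped, that of KDM6B differed by 9.37 in place of 20.4 percentage points, that of KDM4B by 10.2 in place of 17.6, that of KDM5C by 6.26 in place of 13.98, that of KDM3B by 2.84 in place of 7.26, that of KDM2B by -9.70 in place of -5.73 and that of TET1 by 6.99 in place of 2.71. All shares but those of KDM4C and TET3 were still apart.

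**Figure D3:**
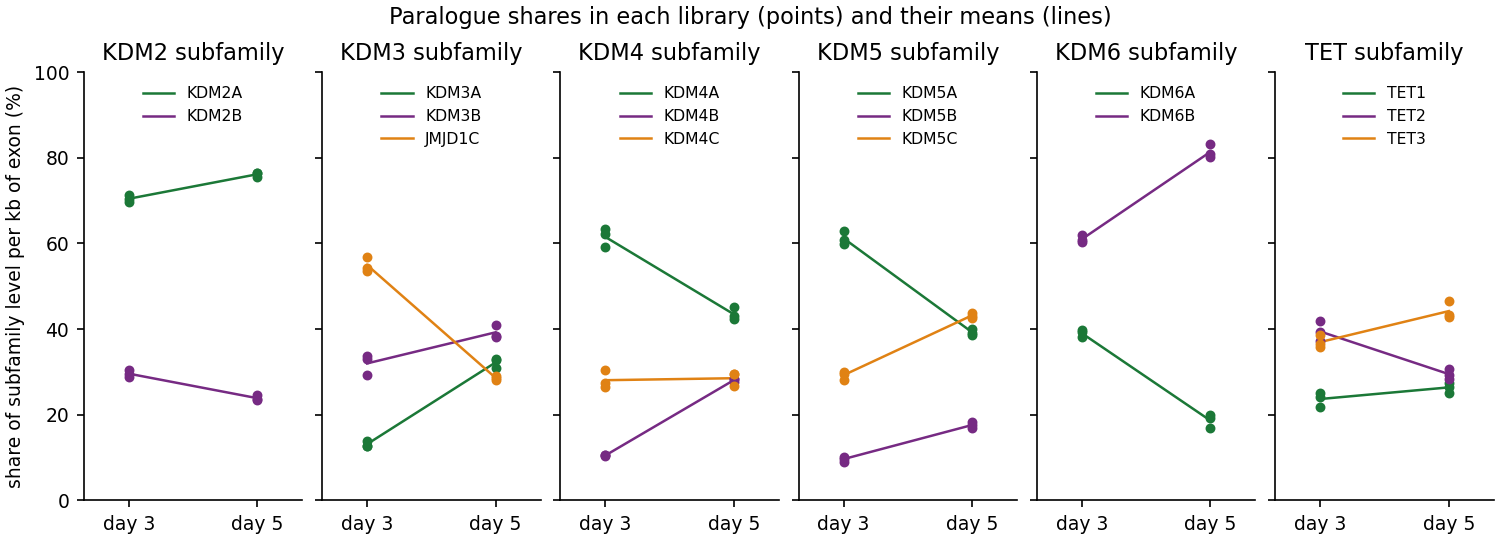
Share of each paralogue in the summed level per kb of exon of its subfamily (y axis, percent) on day 3 and day 5, with a point for each library and a line joining the means of 3. KDM3A, KDM4B, KDM5B, KDM5C and KDM6B lie higher on day 5 and KDM4A, KDM5A, KDM6A and JMJD1C lie lower, with no overlap between the days.

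Of the 11 other JmjC demethylases and TET2, 7 rose and 4 did not pass. For this list and those below, the shares among all genes tested were 29.3% called higher and 27.6% lower. Their median log2 fold change was 0.35. KDM2A rose most, followed by KDM3B, an H3K9 demethylase, at 1.11 (adjusted p = 0.000382 from limma), and PHF2, another H3K9 demethylase, at 0.87 (adjusted p = 0.000873 from limma). JMJD1C did not pass although its days did not overlap, at -0.13 on the log2 scale (95% interval -0.32 to 0.06, adjusted p = 0.207 from limma). With the GC and length trend removed, 7 of the 11 were called higher, against 24.9% of the genes tested that way. The demethylases that use a flavin in place of 2-oxoglutarate also rose, KDM1B by 0.61 (adjusted p = 0.0016 from limma) and KDM1A by 0.38 (adjusted p = 0.0377 from limma). The call of KDM1A was lost without any one of day 3 replicates 1 and 2 and day 5 replicates 1, 2 and 3 (adjusted p 0.0608 to 0.0983 from limma), and with the GC and length trend removed (adjusted p = 0.271 from limma). RCOR1, the scaffold that ties KDM1A to nucleosomes, rose 2.15-fold by its means (adjusted p = 0.000216 from limma).

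The enzymes that write the same marks moved in both directions. Of 6 H3K9 methyltransferases, 3 were called higher and 1 lower: EHMT2 was at 0.83, EHMT1 at 0.63 and SETDB1 at 0.58, and SUV39H2, which writes trimethyl H3K9, was at -0.99 on the log2 fold change scale (adjusted p up to 0.00145 from limma). SUV39H1 did not pass, at 0.17 (adjusted p = 0.281 from limma), and passed without day 3 replicate 3 (adjusted p = 0.0451 from limma). After the GC and length trend was removed, EHMT1 and EHMT2 were at 0.07 and 0.07 and did not pass. SETDB1, at 0.29, and SUV39H2, at -0.65, still passed (adjusted p = 0.0348 and 0.00157 from limma), as did KDM3A and KDM4B.

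Of 9 genes of the H3K27 methyltransferase complex, opposed by KDM6B, 4 fell and 2 rose, against 27.6% and 29.3% of all genes tested. The catalytic subunit EZH2 fell by 0.47, the core subunit EED fell by 0.87 and the accessory subunit MTF2 fell by 0.53 on the log2 scale (adjusted p = 0.0023, 0.000373 and 0.00374 from limma), and all 3 still passed without the GC and length trend. JARID2, a JmjC-type cofactor of that complex without known demethylase activity, rose by 1.68 (adjusted p = 0.00014 from limma), and EZH1, the second catalytic subunit, rose by 0.44 (adjusted p = 0.00343 from limma, 0.0979 without the trend). RBBP4 did not pass, at -0.21 (adjusted p = 0.0673 from limma).

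Of 8 tested H3K4 methyltransferase genes, 5 rose and 1 fell. KMT2D rose by 1.07, KMT2A by 0.99 and SETD1A by 0.90 (adjusted p = 0.000257, 0.0003 and 0.000679 from limma), and RBBP5, a shared subunit, was at -0.27 (adjusted p = 0.0329 from limma). With the GC and length trend removed, KMT2A was the 1 gene of these 8 that passed, at 0.67, while both KDM5 members passed. RBBP5 passed on the deposited scale but not when any one library other than day 3 replicate 1 was left out (adjusted p 0.0594 to 0.112 from limma). WDR5 was at 0.17 and did not pass (adjusted p = 0.372 from limma).

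Of 6 H3K36 methyltransferases, 4 rose and 1 fell. NSD1 rose by 0.40, ASH1L by 0.37 and NSD2 by 0.31 (adjusted p = 0.016, 0.00577 and 0.0115 from limma), SETMAR fell by 0.99 (adjusted p = 0.00059 from limma), and NSD3 did not pass at 0.13 (adjusted p = 0.166 from limma). Without day 5 replicate 1, 3 of the 6 were called, and NSD1 was lost without that library or without day 3 replicate 2 (adjusted p = 0.052 and 0.0525 from limma). Without the GC and length trend 2 of the 6 passed, ASH1L and SETMAR. Among 9 partners of KDM2B in its Polycomb complex, 5 rose and 3 fell, with BCORL1 at 1.46, USP7 at 0.72 and RYBP at 0.64, and with PCGF1, the subunit that defines the complex, at -0.58 and SKP1 at -0.56 (adjusted p up to 0.00254 from limma). RNF2, its ubiquitin ligase, was at -0.25 (adjusted p = 0.0473 from limma), a call lost without any single library (adjusted p 0.0526 to 0.137 from limma). YAF2 did not pass, at -0.22 (adjusted p = 0.132 from limma), and passed without day 3 replicate 3 (adjusted p = 0.0271 from limma).

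Of 7 genes that write DNA methylation, repair the products of TET enzymes or, for OGT, bind these enzymes, 2 rose and 3 fell. The shares among all genes tested were 29.3% and 27.6%. The methyltransferases DNMT3A and DNMT1 rose by 0.71 and 0.61 (adjusted p = 0.00087 and 0.00298 from limma), and without the GC and length trend they were at 0.18 and -0.02 and did not pass. TDG, the glycosylase that cuts out oxidised 5-methylcytosine, fell by 0.87 (adjusted p = 0.000284 from limma), and MBD4, another glycosylase, fell by 0.85 (adjusted p = 0.000528 from limma). SMUG1 was at -0.33 (adjusted p = 0.0182 from limma), a call lost without day 5 replicate 1 or 3 (adjusted p = 0.0521 and 0.0601 from limma). OGT, the sugar transferase that binds TET enzymes, did not pass, at 0.04 (adjusted p = 0.719 from limma). With and without the trend, TET1 was called higher and TDG lower. Without the trend 4 of the 7 were called, each lower, with the methyltransferase DNMT3B, named after its values were seen, at -0.55 (adjusted p = 0.00143 from limma), against -0.14 (adjusted p = 0.15 from limma) with it.

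**Figure D4:**
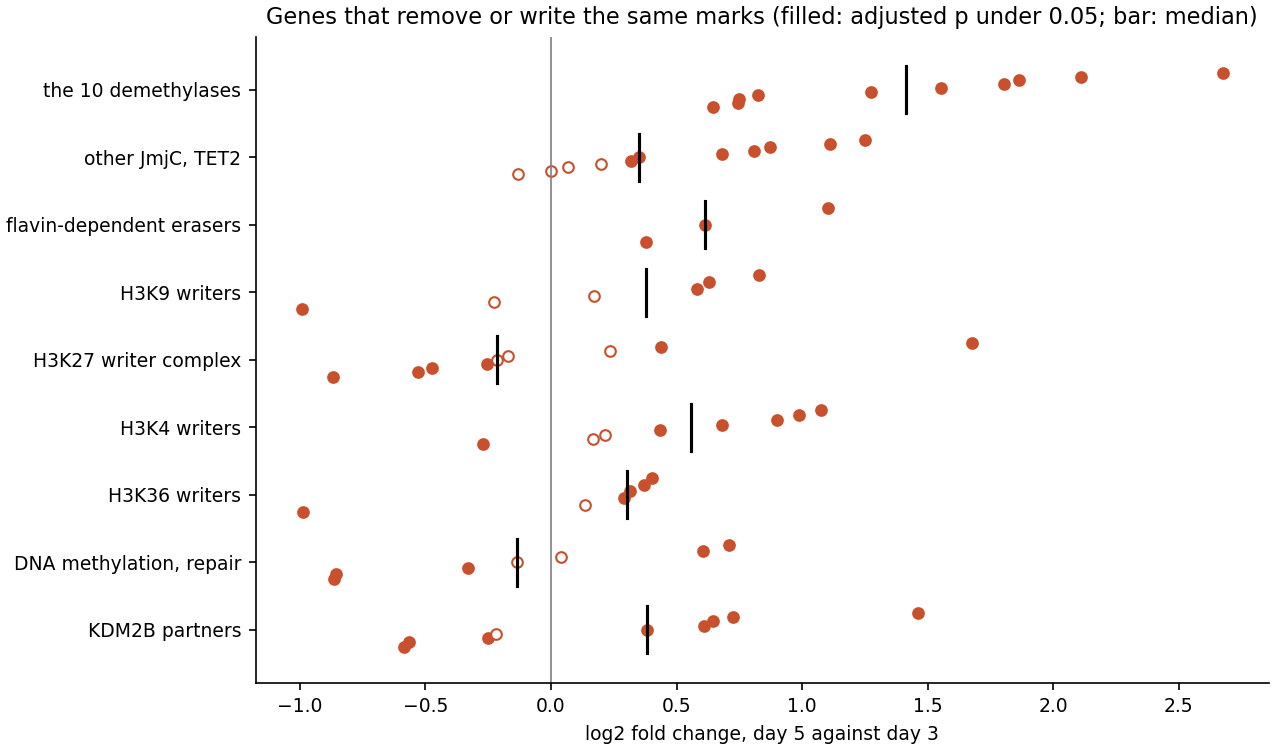
Log2 fold change of day 5 against day 3 (x axis) for the 10 demethylases, other erasers, the writers of the same marks and the partners of KDM2B (rows), with filled points for adjusted p under 0.05, open points for the rest and a bar at the median of each row. The 10 demethylases have a median of 1.42, and the H3K27 writer complex has one of -0.21.

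Genes outside these routes moved with the same contrast. All 12 listed target genes of hypoxia-inducible factors rose, and their summed normalized read count was 12982 to 13252 in the day 3 libraries and 94112 to 107384 in the day 5 libraries. NDRG1 rose by 4.68, ANKRD37 by 4.10 and CA9 from a mean of 1.92 to one of 199 (adjusted p up to 0.000235 from limma). Of 12 S phase and mitosis genes, 7 fell and 2 rose, with PCNA at -1.37, CCNB1 at -1.15 and CDK1 at -1.06, with MKI67 at 0.52 and MCM2 at 0.61, and with RRM2 at 0.04, which did not pass (adjusted p = 0.766 from limma). The call of MCM2 was lost without day 3 replicate 1 or 2 or day 5 replicate 1 or 3 (adjusted p 0.0567 to 0.0972 from limma). With the GC and length trend removed, MCM2 was at 0.16 and not called (adjusted p = 0.427 from limma), and MKI67 was at 0.21 (adjusted p = 0.0426 from limma). The summed count of the 12 was 120792 to 143167 on day 3 and 104276 to 110774 on day 5. The part of either in the rise of the demethylases was not tested.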

How the data were processed

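Total RNA of HCT116 cells was depleted of rRNA and sequenced by the authors as strand-specific paired-end libraries, with reads mapped to annotated genes of hg38. Per the file headers and the methods, the authors deposited normalized read counts, a signal with 1 scale factor per library, for 38055 genes, beside their own fold changes and p-values, which were not used. Divided by the worth of 1 read in their library, 100% of these values came out whole (tolerance 0.001), so reads were recovered. The methods name TMM in CLC Genomics Workbench, whereas the header's column names are those of DESeq2 output. Handling of UMIs is not given in the sources used here. The miRNA tables were not used.

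Genes were matched by Ensembl identifier to GENCODE release 44 (GRCh38), which gave 138 of 142 list genes, loci, exon lengths and GC content. Members and lists were chosen with earlier results of these data known. limma 3.58.1 (R 4.3.3) was fitted to log2(value + 1) of 20129 genes, those that reached 10 in 3 or more of the 6 libraries, with default empirical Bayes settings, and fold changes are on that scale. KMT2B did not pass this filter, and 1 gene taken out of the lists is not reported here. Genes named were all members and their paralogues and, of each list, the 3 called genes that rose most, the 3 that fell most and the most abundant one not called. On simulated data, 122 of 194 genes changed 2-fold were called (62.9%), with 7 false calls among 19679 genes. Far more genes were called in the real data than were changed there, so the 62.9% does not measure the power of the real comparison. edgeR 4.0.16 and DESeq2 1.42.0 on recovered reads called 12280 and 11530 genes, against 11450 by limma. Shares were compared with scipy 1.17.1.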

Additional observations from a re-analysis of the deposited data

How the results depend on the processing

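The calls of all 10 demethylases held with library totals as the scale, no filter or a filter at 100, pseudocounts of 0.1 and 10, a trended robust spread, edgeR and DESeq2 on reads and without any one library, with log2 fold changes between 0.57 and 2.74 and adjusted p (limma, edgeR or DESeq2) up to 0.0162. The GC and length correction, added after seeing the data, left 8, without KDM2B (adjusted p = 0.515 from limma) and TET3 (adjusted p = 0.0528 from limma). Requiring a 2-fold change left 6 of them, 2 of the other JmjC genes, 2 of the other dioxygenases, 1 gene of the flavin-dependent list (RCOR1, a partner and not itself an enzyme), 0 H3K9 writers (4 pass with no fold minimum in limma), 1 gene of the H3K27 complex, 1 H3K4 writer, 0 H3K36 writers (5 with no minimum), 0 DNA methylation genes (5 with no minimum), 1 KDM2B partner, 6 metabolic genes, 3 proliferation genes and 3589 genes in all, since the criterion is stricter. The correction left 2 H3K9, 1 H3K4 and 2 H3K36 writers, and no filter left 1 H3K36 writer, for which the cause was not tested. Without single libraries the H3K36 count lay between 3 and 5 and the count over all genes between 9780 and 11300. The change in the KDM4C share was -6.40 percentage points on values not divided by length, and between -0.366 and 1.61 without single libraries. With the correction the sign turned for 16 of 132 list genes, 7 of them named by rule: TET2 (-0.032), FTO (-0.020), SUV39H1 (-0.17), WDR5 (-0.11), DNMT1 (-0.016), RNF2 (0.15) and RRM2 (-0.10). The others include SETD1B (-0.13), BCOR (-0.089) and D2HGDH (-0.089), called higher without it, and PHF19 (-0.30, adjusted p = 0.0269 from limma), named after their values were seen. The TET3 share turned to -0.278 percentage points. Without single libraries OGT lay between -0.019 and 0.10, RRM2 between -0.058 and 0.12 and EPCAM between -0.028 and 0.021, with EPCAM at -0.0090 in edgeR and -0.011 in DESeq2.

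No pairing of the libraries by replicate number was seen in the values. Deviations from the day means of libraries with the same number correlated at -0.011, 0.034 and 0.023 across genes, and not every library correlated best with its own number. The labels do not say whether equal numbers mark a shared culture, and these values cannot settle it. With the replicate number as a block, all 10 demethylases passed, 10533 genes were called, and KDM1A, KDM6A, MCM2, RBBP5 and RNF2 were not (adjusted p 0.0508 to 0.0961 from limma). Exact tests of shares within pairs gave p of 0.25 at the smallest, the least that 3 pairs allow. FTO, RBBP4, YAF2 and DLST did not pass in limma as designed but passed with edgeR, DESeq2 and some limma settings: a filter at 100 and a trended robust spread for FTO, RBBP4 and DLST, library totals for FTO and DLST, and day 3 replicate 3 left out for FTO, YAF2 and DLST.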

Other observations

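Dioxygenases of the same chemistry with other substrates, such as RNA or ribosomal proteins, moved in both directions. Of 10 tested, 2 were called higher and 4 lower, against 29.3% and 27.6% of all genes tested. Their median log2 fold change was -0.29. ALKBH5, which removes methyl groups from adenosine in RNA, rose from means of 2069 to 4433 (log2 fold change 1.12, adjusted p = 0.002 from limma), and JMJD6 rose by 0.63 (adjusted p = 0.00322 from limma). FTO, the other RNA demethylase of that kind, was at 0.24 and did not pass (adjusted p = 0.0857 from limma). HSPBAP1 fell by 1.02, the ribosomal protein hydroxylase RIOX2 by 0.84 and the DNA repair enzyme ALKBH3 by 0.56 on the log2 scale (adjusted p = 0.000967, 0.000714 and 0.00284 from limma), in each case with all day 5 libraries below all day 3 libraries.

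Genes that make or use 2-oxoglutarate, or the acids that compete with it, were split. Of 18, 8 rose and 5 fell, against 29.3% and 27.6% of all genes tested, with a median of 0.29. OGDH, which consumes 2-oxoglutarate in mitochondria, rose from means of 1412 to 3830.4 (log2 fold change 1.45, adjusted p = 0.000451 from limma). IDH2, which makes 2-oxoglutarate, rose by 1.12 (adjusted p = 0.00134 from limma). IDH1 and IDH3A, named after their values were seen, fell, at -0.67 and -0.86 (adjusted p = 0.000777 and 0.000487 from limma). IDH3B and IDH3G did not pass on the deposited scale. LDHA, lactate dehydrogenase, rose 2.14-fold by its means (adjusted p = 0.000517 from limma). SDHB and FH, which clear succinate and fumarate, fell by 1.07 and 1.00, and MDH1 fell by 1.02 (adjusted p up to 0.000942 from limma). SDHA, of the same enzyme as SDHB, rose by 0.74, and MDH2 by 0.95 (adjusted p = 0.00176 and 0.00309 from limma). Both were named after their values were seen. DLST, a further subunit of the OGDH complex, did not pass, at 0.27 (adjusted p = 0.06 from limma), and passed without day 3 replicate 3 (adjusted p = 0.0168 from limma). Metabolite levels were not analysed here.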
